A study of Mus musculus with 6 samples.

Results

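The major histocompatibility complex (MHC) class II antigen presentation genes are described here in bone marrow-derived eosinophils treated with extracellular vesicles (EVs) from T cells. The group consisted of 7 genes, which were H2-Aa, H2-Ab1, H2-Eb1, H2-DMa, H2-DMb1, Cd74 and Ciita, chosen by gene symbol among the 16254 genes for which counts were deposited. All 7 were present and passed the filter on low counts, as did 13498 genes in all. Eosinophils were grown from the bone marrow of C57BL/6 mice aged 6 to 12 weeks with growth factors and then IL-5. At culture day 12 they were treated for 24 h either with EVs from activated TH2 cells at 5e9 EVs per ml (EV, n = 3 cultures) or with unconditioned medium taken through the same size exclusion and filtration steps (sham, n = 3 cultures). All cultures shared the strain, the growth factors and the day of treatment, and they differed by the treatment alone as far as the labels say. RNA was sequenced from poly(A)-selected libraries of 23697620 to 37874426 counts.

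MHC class II molecules are heterodimers of an α and a β chain that carry peptides from endosomes to the cell surface, where CD4+ T cells read them. The chains assemble in the endoplasmic reticulum with the invariant chain, encoded by Cd74, which fills the peptide groove and directs the complex to endosomes. There cathepsins cut the invariant chain down to a short fragment called CLIP, and the H2-DM heterodimer exchanges CLIP for peptide. Ciita encodes the transactivator, which binds no DNA itself. It drives the class II chain genes, Cd74 and the H2-DM genes through factors on an X box and a Y box in their promoters. Dendritic cells, B cells and activated macrophages are the classic class II-bearing cells. Eosinophils can present antigen, but at steady state they carry little class II.

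The genes of the class II chains, with H2-DM and H2-O, lie together on mouse chromosome 17, where 10 of them span 252.3 kb from position 34092379 to 34344645 (GRCm38). Promoter sequences from RefSeq (GRCm38.p6) were found for 4 of the 7 members, H2-Aa, H2-Eb1, H2-DMb1 and H2-DMa. Of these, 3 held the letters GNAACT followed after 24 or 25 bases by TGATTGG searched on both strands, which are the cores of the X and Y boxes at their usual distance. Read on the other strand, TGATTGG holds the CCAAT letters that NF-Y binds. This pair of motifs was written down after the sequences had been seen. It occurred in 12 of 32851 RefSeq promoters of 300 bases (0.0365%), against 2568 (7.82%) for TGATTGG alone. The 3 sequences are shown because they carry the letters of the boxes to which Ciita is known to be recruited, and the levels of the factors for these boxes are given further on. Each gives the 150 bases before the RefSeq start, 5′ to 3′ on the strand of the gene, with the X box core and then the Y box core in capitals.
H2-Aa, minus strand, chr17:34287824-34287973: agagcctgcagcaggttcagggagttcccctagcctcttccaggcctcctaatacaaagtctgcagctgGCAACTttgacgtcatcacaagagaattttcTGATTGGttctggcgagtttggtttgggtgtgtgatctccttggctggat
H2-Eb1, plus strand, chr17:34305717-34305866: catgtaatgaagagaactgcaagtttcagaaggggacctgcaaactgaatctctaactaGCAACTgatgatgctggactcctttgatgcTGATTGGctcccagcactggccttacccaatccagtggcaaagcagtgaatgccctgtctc
H2-DMb1, plus strand, chr17:34153041-34153190: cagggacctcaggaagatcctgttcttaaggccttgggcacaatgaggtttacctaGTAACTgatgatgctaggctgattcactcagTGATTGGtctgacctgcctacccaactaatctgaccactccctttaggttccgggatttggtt
The X box core began 81, 91 and 94 bases before the start in H2-Aa, H2-Eb1 and H2-DMb1, and the Y box core began 50, 61 and 63 bases before it. A match is a description of letters and was not tested as a binding site. The promoters listed for H2-DMa, at 2 starts, held no such pair. Both windows, which begin at positions 34122582 and 34125268, lay inside the annotated gene, which begins at 34119693. The bases before that first position were not searched.

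Values are given as normalized counts, which are the estimated counts rounded to whole numbers and divided by the library size after TMM scaling, at a common library size. The treatments were compared by the quasi-likelihood test of edgeR, with p-values adjusted by the Benjamini-Hochberg method over the 13498 genes and a threshold of 0.01. These p-values measure the spread between the cultures the labels call biological replicates. Over all genes 3204 (23.7%) passed, 1632 (12.1%) of them higher and 1572 (11.6%) lower in EV-treated cells. With scaling by library size alone, that split was 1036 higher and 2342 lower.

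None of the 7 class II genes passed this threshold in either direction, 0 of 7 against 23.7% of all genes. At an unadjusted p under 0.05 in edgeR there were 2, H2-Ab1 and Cd74, against 44.5% of all genes. DESeq2 called 1 of the 7, H2-Ab1, with an adjusted p of 0.0041, against 26.4% of the 14910 genes for which it gave an adjusted p. In limma 0 of the 7 passed, against 24.7% of all genes. The log2 fold change (EV minus sham) was below 0 for 6 of the 7 and above 0 for Ciita, with a median of -0.31 over the 7 genes and -0.01 over all genes tested. For H2-Ab1 and H2-DMb1 all EV-treated cultures were lower than all sham-treated cultures, which held for 24.7% of all genes. With the replicate number as a block, edgeR called 3 of the 7 lower, Cd74, H2-Ab1 and H2-Aa, against 26.5% of all genes. The labels do not say whether cultures of equal number came from the same marrow, and the study's own text can be read that way, so whether 0 or 3 members pass depends on a pairing that the sources used here do not settle. No member had all EV-treated cultures above all sham-treated cultures, which held for 24.8% of all genes. The other 5 overlapped between the treatments.

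**Figure D1:**
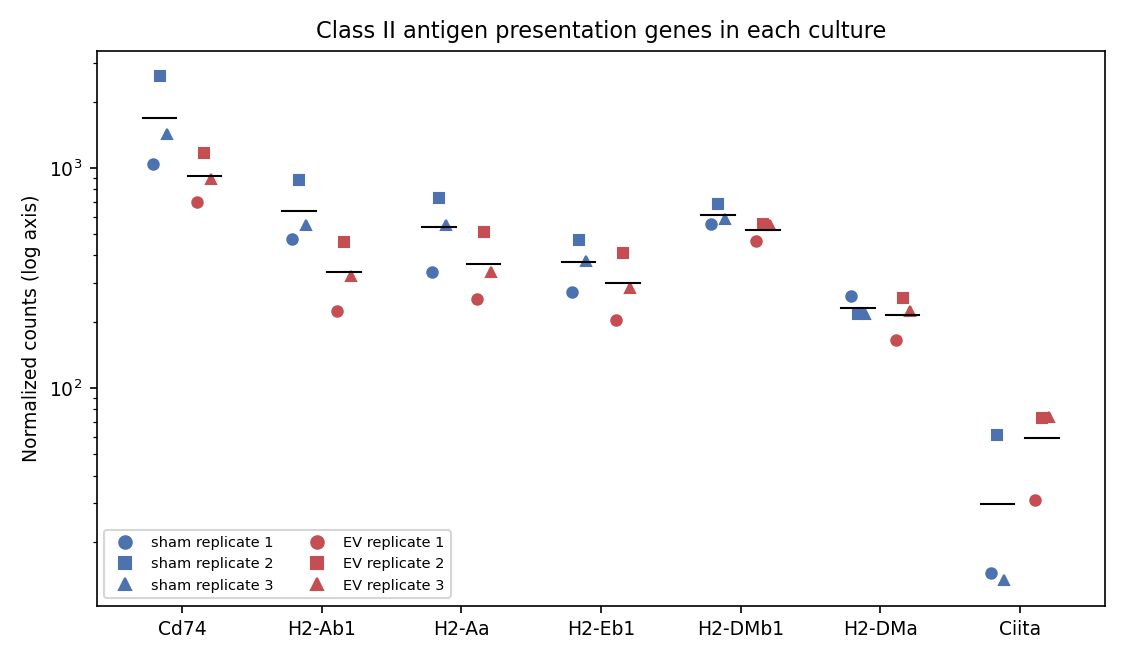
Normalized counts (log axis) of the 7 class II antigen presentation genes in each culture, with sham in blue, EV in red, a marker shape for each replicate number and a black line at the group mean. Sham replicate 2 is the highest sham culture for all genes shown except H2-DMa, and the treatments separate without overlap for H2-Ab1 and H2-DMb1 alone.

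H2-Ab1 encodes the β chain of I-A, which is the class II molecule that C57BL/6 mice express at the surface. Its normalized count was 477, 879 and 549 in sham replicates 1 to 3 and 223, 461 and 324 in EV replicates 1 to 3. Every EV-treated culture lay below every sham-treated culture, although the highest EV value and the lowest sham value were close. The means were 635 ± 214 and 336 ± 120 (SD, n = 3 each), 1.88-fold lower after EV, and the log2 fold change was -0.91 (SE 0.282, 95% interval -1.54 to -0.28), with an edgeR adjusted p of 0.0293. Without sham replicate 2 the log2 fold change was -0.61 and the adjusted p 0.111.

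H2-Aa encodes the α chain that pairs with the product of H2-Ab1. It was counted at 335, 728 and 552 in sham-treated and at 254, 511 and 338 in EV-treated cultures. The groups overlapped, since EV replicates 2 and 3 lay above sham replicate 1. The means were 538 ± 197 and 367 ± 131 (SD, n = 3 each), and the log2 fold change was -0.54 (SE 0.300, 95% interval -1.21 to 0.13, edgeR adjusted p = 0.194). The value moved to -0.26 without sham replicate 2 and to -0.85 without EV replicate 2.

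H2-Eb1 encodes the β chain of I-E, which C57BL/6 mice transcribe but do not display, because they lack a functional gene for its α chain, H2-Ea. The normalized count of H2-Eb1 was 273, 468 and 377 in sham-treated and 204, 411 and 285 in EV-treated cultures. The groups overlapped, since EV replicate 2 lay above sham replicates 1 and 3 and EV replicate 3 above sham replicate 1. The log2 fold change was -0.31 (SE 0.267, 95% interval -0.90 to 0.29), with an edgeR adjusted p of 0.415. It was -0.09 without EV replicate 1, -0.11 without sham replicate 2, -0.48 without sham replicate 1 and -0.60 without EV replicate 2. H2-Ea was not analysed here.

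Cd74, for the invariant chain, was the member with the highest level per kilobase in both treatments. Its normalized count was 1038, 2613 and 1425 in sham-treated and 698, 1165 and 892 in EV-treated cultures. Sham replicate 2 stood well above the other cultures, and EV replicate 2 lay above sham replicate 1, so the groups overlapped. Means were 1692 ± 821 and 918 ± 234 (SD, n = 3 each), 1.84-fold lower after EV, with a log2 fold change of -0.88 (SE 0.298, 95% interval -1.54 to -0.21) and an edgeR adjusted p of 0.0437. The value depended on single sham cultures. Without sham replicate 1 the log2 fold change was -1.12 and passed at an adjusted p of 0.00795, and without sham replicate 2 it was -0.42 with an adjusted p of 0.159.

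The 4 genes for the I-A and I-E chains and the invariant chain had a summed normalized count of 2123, 4688 and 2903 in sham-treated cultures. In EV-treated cultures the sum was 1379, 2547 and 1839. Means were 3238 ± 1315 and 1922 ± 589 (SD, n = 3 each), and EV replicate 2 lay above sham replicate 1. As the samples are bulk cultures, fewer class II-bearing cells and less class II RNA per cell cannot be told apart.

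Macrophage markers were lower in the same comparison. Of 12 listed macrophage markers, 9 fell in EV-treated cultures and 1, Adgre1, rose, against 11.6% lower and 12.1% higher over all genes. Their median log2 fold change was -2.52, and none of the 12 was at 0. Their summed normalized count ranged from 96927 to 153870 in sham-treated and from 47298 to 56979 in EV-treated cultures. Of this sum, Gpnmb made up 51577 to 91829 in sham-treated and 6488 to 11511 in EV-treated cultures. Adgre1, which rose, made up 21095 to 21678 in sham-treated and 32085 to 33532 in EV-treated cultures. The sum for C1qa, C1qb and C1qc, the chains of complement C1q that tissue macrophages make, was 5804, 11290 and 9802 in sham-treated and 911, 1842 and 1920 in EV-treated cultures. Sham replicate 2 was the highest culture, and EV replicate 1 the lowest, for this sum as for the class II sum. The part of the macrophage markers in the class II values was not tested.

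**Figure D2:**
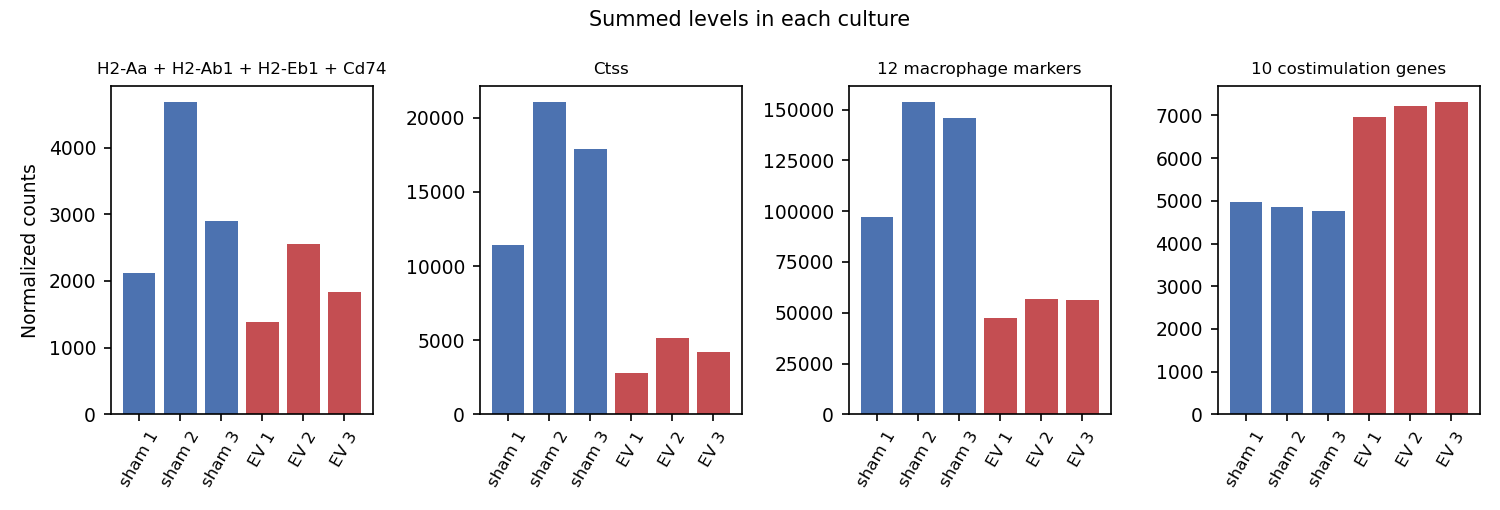
Summed normalized counts (linear axes from 0, a separate scale in each panel) in each sham (blue) and EV (red) culture for H2-Aa, H2-Ab1, H2-Eb1 and Cd74, for Ctss, for the 12 listed macrophage markers and for the 10 listed costimulation genes. The class II sum overlaps between treatments, from 2123 to 4688 in sham and from 1379 to 2547 in EV. The macrophage marker sum runs from 96927 to 153870 in sham and from 47298 to 56979 in EV. Gpnmb makes up 51577 to 91829 of it in sham and 6488 to 11511 in EV, and Adgre1 21095 to 21678 and 32085 to 33532.

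Markers of the other class II-bearing cells were measured beside these. The summed count of 12 dendritic cell markers ranged from 5120.6 to 5696.4 in sham-treated and from 5456.8 to 6722.4 in EV-treated cultures, of which Itgax, which eosinophils also express, made up 4805 to 6247. The defining markers Flt3 (0.00 to 10.8) and Siglech (0.00 to 8.11) were low in every culture and failed the filter on low counts. Zbtb46 (2.43 to 24.9), Xcr1 (37.99 to 57.4), Clec9a (23.5 to 62.2) and Batf3 (17.1 to 117) passed it. Of the 10 dendritic cell markers tested, 2 rose, Mgl2 and Batf3, and 0 fell, against 12.1% higher and 11.6% lower over all genes. All EV-treated cultures lay above all sham-treated cultures for 5, against 24.8% of all genes, and below them for 1, Ccr7, against 24.7%. Ccr7 averaged 18.5 in sham-treated and 3.44 in EV-treated cultures (log2 fold change -2.41, edgeR adjusted p = 0.0366). The summed count of 7 B cell markers ranged from 186 to 226 in sham-treated and from 175 to 199 in EV-treated cultures. In edgeR 0 of the 5 B cell markers tested passed, against 23.7% of all genes, and 1 had an unadjusted p under 0.05, against 44.5%. Ms4a1 was the highest of them on average over all cultures (67.6 to 108).

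Of 7 T cell markers, 3 were tested and 1 fell, Cd28, against 11.6% of all genes. The 7 markers summed to 350 to 858 in sham-treated and 90.9 to 183 in EV-treated cultures. Of these sums, Cd28 alone made up 292 to 707 in sham-treated and 27.0 to 53.1 in EV-treated cultures. The other 2 tested, Cd3d and Il2ra, had log2 fold changes of 0.35 and 1.37 and did not pass. Cd3g was between 0.00 and 6.00 in every culture, whereas Cd3d was between 12.2 and 71.1, and Il2ra averaged 17.9 ± 8.72 in sham-treated and 46.4 ± 18 in EV-treated cultures (SD, n = 3 each). Of 6 mast cell and basophil markers, 5 were tested and 4 rose, against 12.1% of all genes. These were Ms4a2 (log2 fold change 2.64), Mcpt8 (2.46), Prss34 (1.58) and Cpa3 (1.30). Over all 6 the sums were 1724 to 2697 in sham-treated and 6011 to 7642 in EV-treated cultures. Markers of eosinophils, the labelled cell type, were abundant. Prg2, a granule protein gene, ranged from 558760 to 777590 and Epx, the eosinophil peroxidase gene, from 129430 to 212850 normalized counts. Of 12 eosinophil markers, 8 rose and 0 fell, against 12.1% higher and 11.6% lower over all genes. Their sums were 942210 to 1186800 in sham-treated and 1344100 to 1501600 in EV-treated cultures. The part of these changes in the class II values was not tested.

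H2-DMa and H2-DMb1 encode the chains of the peptide exchange factor H2-DM. For H2-DMb1 the normalized count was 558, 685 and 586 in sham-treated and 468, 553 and 550.1 in EV-treated cultures. EV-treated cultures were all lower, but the highest of them came within a few counts of sham replicate 1. The log2 fold change was -0.22 (SE 0.126, 95% interval -0.50 to 0.06), with an edgeR adjusted p of 0.215, and it was -0.13 without sham replicate 2 and -0.14 without EV replicate 1. H2-DMb1 shared 31.4% of the 31-base words of its transcripts with other genes, chiefly H2-DMb2, so reads could be split between them.

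H2-DMa was counted at 260, 216 and 218 in sham-treated and at 165, 256 and 225 in EV-treated cultures. The groups overlapped almost completely, and EV replicate 1 was the lowest and sham replicate 1 the highest culture. The log2 fold change was -0.10 (SE 0.203, 95% interval -0.56 to 0.35, edgeR adjusted p = 0.734), and it was 0.06 without EV replicate 1. Within each culture the ratio of H2-DMa to H2-DMb1 was between 0.315 and 0.467 in sham-treated and between 0.353 and 0.464 in EV-treated cultures.

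Ciita, the transactivator gene, had the lowest counts of the group and was the only member with a positive fold change. Its normalized count was 14.4, 61.3 and 13.4 in sham-treated and 30.97, 72.9 and 74.0 in EV-treated cultures, from 16, 50 and 11 and from 31, 85 and 85 rounded counts. Sham replicate 2 was again far above the other sham cultures and lay above EV replicate 1, so the groups overlapped. Means were 29.7 ± 27.4 and 59.3 ± 24.5 (SD, n = 3 each), and the log2 fold change was 1.01 (SE 0.659, 95% interval -0.46 to 2.48) with an edgeR adjusted p of 0.272. Without sham replicate 2 it was 2.08, with an adjusted p of 0.0215.

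**Figure D3:**
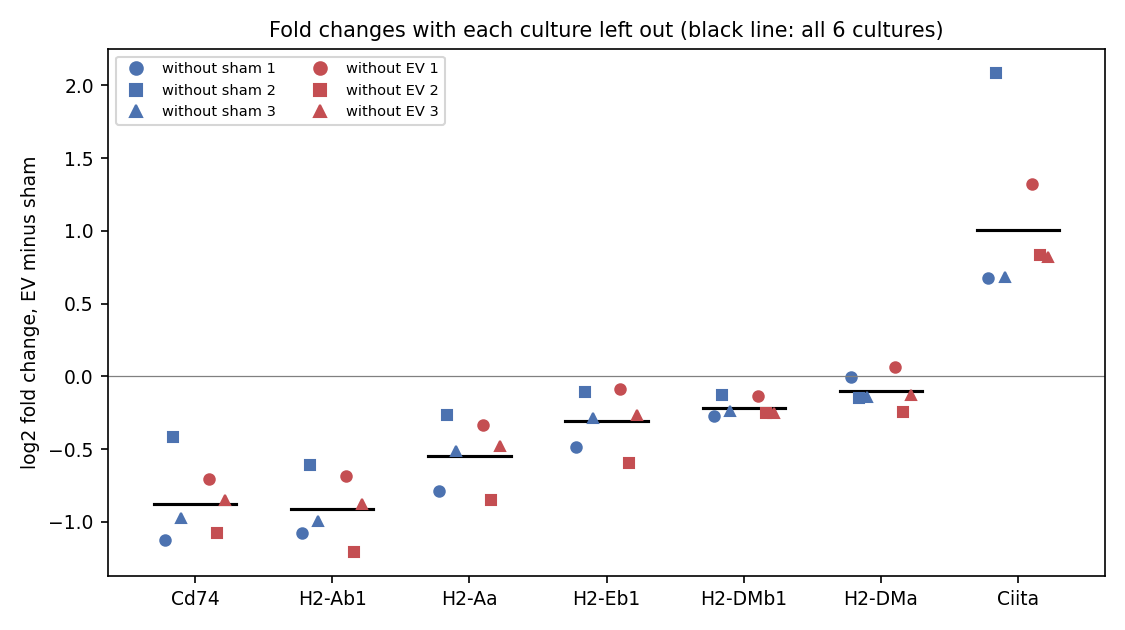
Log2 fold change (EV minus sham) of each class II gene refitted with each culture left out, blue for a sham and red for an EV culture, marker shape for the replicate number, and a black line for the fit of all 6 cultures. Leaving out sham replicate 2 moves Cd74 from -0.88 to -0.42 and Ciita from 1.01 to 2.08, and H2-DMa crosses 0 without EV replicate 1.

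Levels of different genes were compared as mean normalized counts per kilobase of the longest coding transcript in GENCODE vM21, over 12198 genes with a length. In sham-treated cultures the order per kilobase was Cd74 (1200 ± 582), H2-Ab1 (524 ± 177), H2-Aa (477 ± 174), H2-DMb1 (434 ± 47.7), H2-Eb1 (223 ± 58.5), H2-DMa (115 ± 12.6) and Ciita (4.94 ± 4.56; SD, n = 3). Among the first 4 of these, neighbors overlapped within 1 SD, and H2-Eb1, H2-DMa and Ciita were each set apart from the member above. In EV-treated cultures the order per kilobase was Cd74 (651 ± 166), H2-DMb1 (373 ± 34.5), H2-Aa (326 ± 116), H2-Ab1 (277 ± 98.7), H2-Eb1 (180 ± 62.4), H2-DMa (107 ± 23.2) and Ciita (9.87 ± 4.08). Here Cd74 and Ciita were set apart by more than 1 SD, and the members between them overlapped with their neighbors.

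On this per-kilobase scale Cd74 stood at percentile 87.5 of all genes with a length in sham-treated and 75.9 in EV-treated cultures. H2-Ab1 stood at percentiles 71.2 and 55.5. Ciita stood at 3.66 and 10.9. Ciita was thus near the lower end of the range of expressed genes, and the other 6 members lay between percentiles 35.6 and 87.5 in sham-treated cultures.

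The ratio of H2-Ab1 to H2-Aa within a culture does not depend on the scaling between libraries. It was 1.42, 1.21 and 0.996 in sham-treated and 0.878, 0.903 and 0.959 in EV-treated cultures. All EV-treated cultures were lower, with a log2 difference of -0.39 and p = 0.1 in a two-sided exact permutation test, the smallest that 3 against 3 cultures allow, and an adjusted p of 0.2 over the 4 ratios computed. The ratio of Cd74 to the sum of the chains H2-Aa, H2-Ab1 and H2-Eb1 was 0.957, 1.26 and 0.965 in sham-treated and 1.03, 0.843 and 0.942 in EV-treated cultures (exact permutation p = 0.4, adjusted p = 0.533). For H2-DMa to H2-DMb1 the exact permutation test gave p = 0.8.

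Of the class II chains outside the group, 3 were tested and 0 passed in edgeR, against 23.7% of all genes. At an unadjusted p under 0.05 there were also 0, against 44.5%. H2-Oa, a chain of the H2-DM inhibitor H2-O, was counted at 1616, 1449 and 1689 in sham-treated and 1382, 1491 and 1668 in EV-treated cultures (log2 fold change -0.07, SE 0.0918, edgeR adjusted p = 0.622). Its partner H2-Ob was counted at 67.2 ± 22.9 in sham-treated and 83.2 ± 9.73 in EV-treated cultures (SD, n = 3 each), with a log2 fold change of 0.30 (SE 0.342, edgeR adjusted p = 0.542). Per kilobase the means in sham-treated cultures were 1457 for H2-Oa and 25.2 for H2-Ob. H2-Oa shared 18.3% of its 31-base words with other genes, chiefly BC051537, so its level may include reads of that gene. H2-DMb2, the second β chain gene of H2-DM, ranged from 45.1 to 115 in sham-treated and from 46.0 to 84.9 in EV-treated cultures (-0.12, SE 0.442, adjusted p = 0.86), and it was 0.42 without sham replicate 2. H2-Eb2 had 0 to 14 counts and was not tested.

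The factors that bind the X and Y boxes shown above were measured as well. Of the 8 genes for RFX, NF-Y and CREB family factors, 1 fell and 0 rose in edgeR, against 11.6% and 12.1% of all genes. At an unadjusted p under 0.05 there were 3 of 8, against 44.5% of all genes. The median log2 fold change of the 8 was 0.16. Nfya, the DNA-contacting subunit of the Y box factor NF-Y, was counted at 2558, 3269 and 3007 in sham-treated and 1829, 2005 and 1956 in EV-treated cultures. It fell by 0.61 on the log2 scale (SE 0.0918, edgeR adjusted p = 0.000559). Nfyb, another NF-Y subunit, stood at 0.35 on the log2 scale (adjusted p = 0.0113). Among the X box factors, the RFX subunits, the log2 fold change was 0.13 for Rfx5 (adjusted p = 0.474), 0.45 for Rfxap (0.171) and 0.18 for Rfxank (0.535), and that of Rfx5 was -0.02 with scaling by library size alone.

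Genes known to regulate Ciita moved in both directions. Jak2, a kinase of the interferon-γ receptor, rose by 1.41 on the log2 scale, and Irf1, a transcription factor that acts on a Ciita promoter, rose by 1.08 (edgeR adjusted p = 6.44e-08 and 4.81e-06). Socs1, which restrains Jak signaling, rose from 123, 174 and 82.6 in sham-treated to 4002, 4345 and 4661 normalized counts in EV-treated cultures, a log2 fold change of 5.10 (SE 0.189, edgeR adjusted p = 5.75e-08). Irf4 rose by 2.26 (adjusted p = 0.000473).

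Irf8, an interferon regulatory factor of the myeloid lineage, fell from 672, 1266 and 911 to 52.9, 135 and 129.7 normalized counts, a log2 fold change of -3.15 (SE 0.333, edgeR adjusted p = 5.01e-05). Prdm1, whose product Blimp-1 represses Ciita in plasma cells, fell by 1.71 on the log2 scale (edgeR adjusted p = 0.000284). The genes for the interferon-γ receptor chains, Ifngr1 and Ifngr2, each had a log2 fold change of 0.17 and did not pass.

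**Figure D4:**
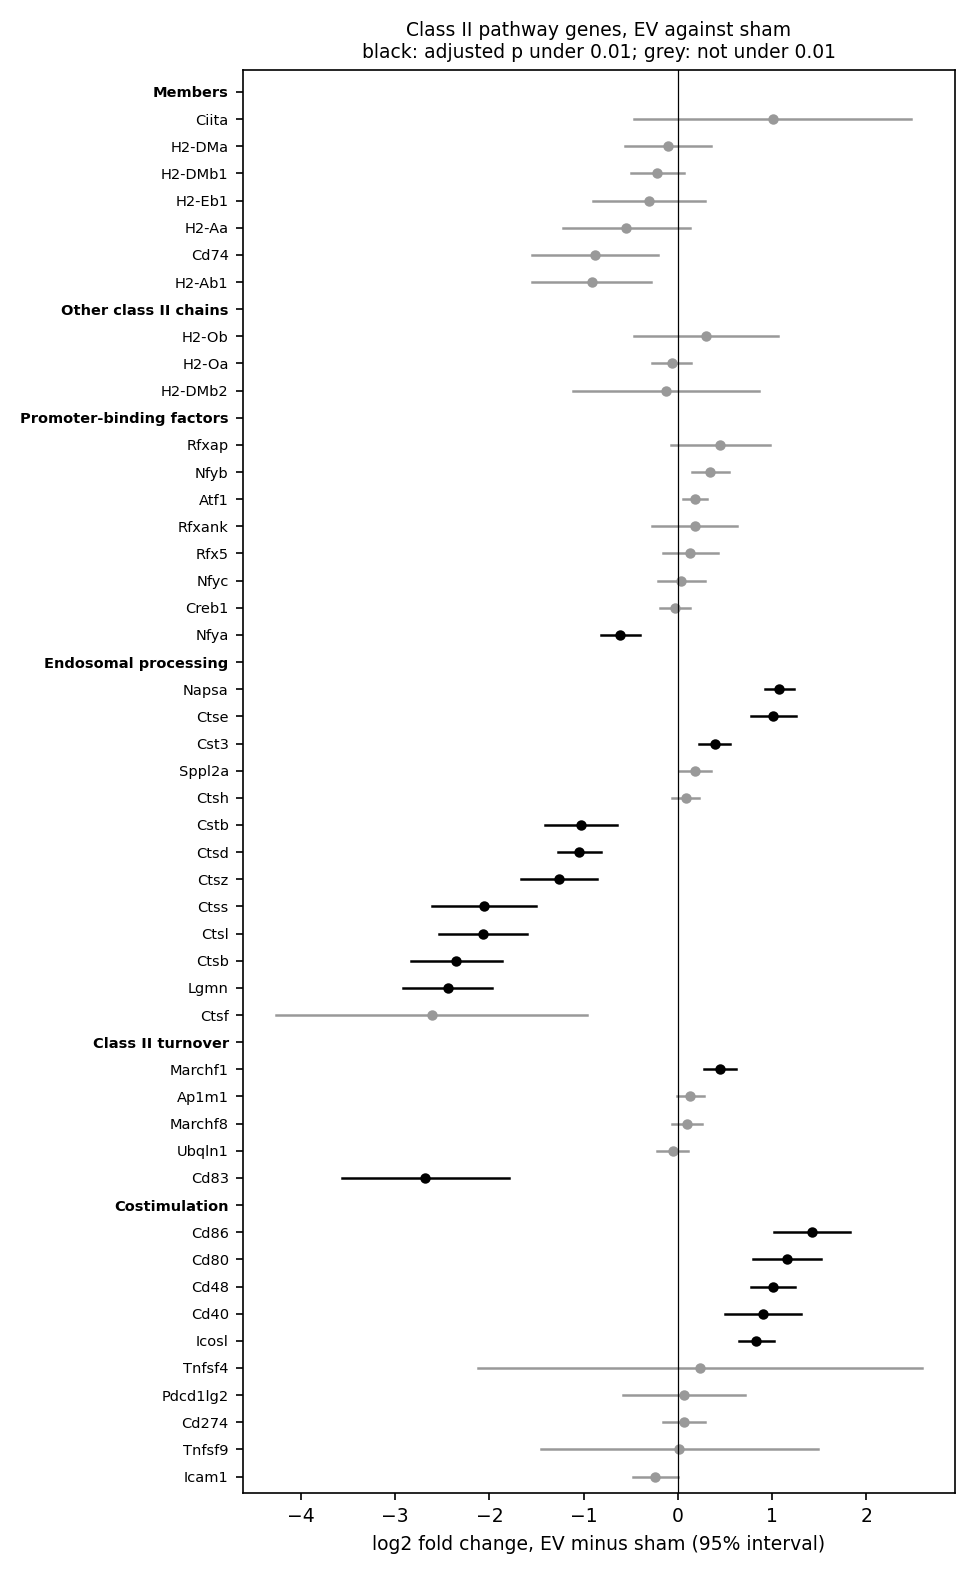
Log2 fold change (EV minus sham, points) with its 95% interval (lines) for the class II members and the tested genes of 5 further lists, black where the edgeR adjusted p was under 0.01 and gray otherwise. The 7 members are all gray. Of 13 endosomal processing genes, 7 lie to the left in black and 3 to the right, and of 10 costimulation genes 5 lie to the right. Over all genes tested, 11.6% passed lower and 12.1% higher.

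Endosomal processing genes prepare the class II groove and its peptides. Of 13 tested, 7 fell and 3 rose, against 11.6% and 12.1% of all genes, with a median log2 fold change of -1.04. Ctss, for cathepsin S, which makes the last cuts of the invariant chain, was counted at 11423, 21079 and 17915 in sham-treated and 2758, 5151 and 4203 in EV-treated cultures. All EV-treated cultures were well below all sham-treated cultures, 4.16-fold lower on average (log2 fold change -2.06, edgeR adjusted p = 0.00012).

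Other endosomal proteases fell too. Lgmn, for the asparaginyl endopeptidase that opens the invariant chain to further cuts, fell by 2.44 on the log2 scale, Ctsb fell by 2.35 and Ctsl fell by 2.07 (edgeR adjusted p from 1.24e-05 to 3.85e-05). Ctsz, Ctsd and the inhibitor gene Cstb fell as well. The 3 that rose were Napsa (1.08), Ctse (1.02) and the inhibitor gene Cst3 (0.39). The same macrophage markers described above moved with these genes, and their part in this result was not tested.

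The ratio of Ctss to Cd74 within a culture, which sets the protease gene against the gene of its substrate, was 11.0, 8.07 and 12.6 in sham-treated and 3.95, 4.42 and 4.71 in EV-treated cultures. It was lower in every EV-treated culture, with a log2 difference of -1.25 (exact permutation p = 0.1, the smallest possible, adjusted p = 0.2).

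Of 5 genes that control class II turnover at the surface, 1 rose and 1 fell, against 12.1% and 11.6% of all genes. Marchf1, a ubiquitin ligase that marks class II for removal, had counts of 1751, 1625 and 1487 in sham-treated and 2130, 2267 and 2238 in EV-treated cultures. It rose by 0.45 (SE 0.0768, edgeR adjusted p = 0.00126), and the adjusted p was 0.0113 with scaling by library size alone. Cd83, which protects class II from Marchf1, fell from 75.7, 135 and 163 to 19.0, 20.6 and 18.3 (log2 fold change -2.68, SE 0.397, adjusted p = 0.000493). Marchf8, a related ligase, had a log2 fold change of 0.10 and an adjusted p of 0.343.

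Costimulatory genes, whose products accompany class II in the activation of CD4+ T cells, rose in 5 of 10 cases and fell in 0. Over all genes, 12.1% rose and 11.6% fell. Cd86 and Cd80, the ligands of CD28, rose by 1.42 and 1.16 on the log2 scale (edgeR adjusted p = 0.000165 and 0.000315), Cd48 by 1.01, Cd40 by 0.90 and Icosl by 0.83. With single cultures removed, Cd40 passed in 2 of 6 fits, and its adjusted p reached 0.0186. Summed over all 10 genes the normalized count was 4967, 4846 and 4770 in sham-treated and 6962, 7216 and 7323 in EV-treated cultures, which did not overlap.

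The spread of class II transcripts within a treatment had a common pattern. Sham replicate 2 was the highest and sham replicate 1 the lowest sham culture for H2-Aa, H2-Ab1, H2-Eb1, H2-DMb1 and Cd74. EV replicate 2 was the highest and EV replicate 1 the lowest EV culture for the same 5 genes. The mean profile of H2-Aa, H2-Ab1, H2-Eb1 and Cd74 was compared with other genes as a description, over 6 cultures that share their libraries and fall into 2 treatments. The tested genes with the most similar deviations from the treatment means were Tmem191, Fam210a, Hnrnpll, Prkar1a and Stk26, with Pearson's r from 0.990 to 0.998. Over the whole profile they were Tmem191, Tmem237, Mocos, Akap17b and Timm10, with r from 0.972 to 0.988. Among class II genes outside the profile, r of the deviations was 0.947 for H2-DMb2, 0.923 for H2-DMb1, 0.844 for Ciita, 0.325 for H2-DMa and -0.154 for H2-Oa, and among macrophage genes it was 0.982 for C1qa.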

How the data were processed

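The authors used FastQC for read quality, Cutadapt for trimming, Salmon for quantification and DESeq2 for the comparison. The submitters' notes name mm10, and versions and strandedness are not given in the sources used here. The authors deposited estimated counts per gene, the values analysed here, and normalized counts, a signal used only for an alternative. The authors' own comparison table (log2 fold changes, p-values) was not used.

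Estimated counts were rounded and tested with edgeR 4.0.16 in R 4.3.3 (TMM scaling, filterByExpr, quasi-likelihood test, treatment as the only term), and the script was tested on simulated data. Libraries held 23697620 to 37874426 counts, so precision is set by culture-to-culture spread for all but low counts. Within a treatment, pairs of libraries differed by a chi-square of 8.37 to 31.8 per gene, where sampling noise gives about 1. Ratios were compared by exact permutation. Alternatives were other scalings, no filter, DESeq2 1.42.0, limma 3.58.1 on the log2 scale (deposited normalized counts, pseudocount 1), the replicate number as a block, other thresholds and leaving out each culture.

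The 7 members and all gene lists were chosen with earlier results of these data known. Named are all members, the other class II chains, the RFX genes and up to 4 called genes with the largest change in each further list. Also named are genes of a count of 5 or fewer that passed in the main comparison, the highest markers of each cell type list, and the 5 genes most similar in pattern. Nfyb, Ctsz, Ctsd, Cstb, Icosl, Ifngr1, Ifngr2, Marchf8, Cd3d, Cd3g, Il2ra, Flt3, Zbtb46, Siglech, Xcr1, Clec9a, Ccr7 and the C1q genes are not covered by that rule and were picked once their values had been seen. Ifi30 was not analysed here, and a result among the regulators of Ciita is not reported here. Promoters were matched by symbol, transcript lengths and shared 31-base words came from GENCODE vM21, and GRCm38 is the build the notes call mm10.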

Additional observations from a re-analysis of the deposited data

How the results depend on the processing

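Precision was limited by 3 cultures per treatment and by the spread of class II genes among the cultures of each treatment. For H2-Aa, H2-Ab1, H2-Eb1, H2-DMb1 and Cd74, replicate 2 was the highest and replicate 1 the lowest culture in both treatments. None of the 7 members passed higher under any alternative. The count of members passing lower was 0 of 7 in the main fit, against 23.7% of all genes passing in either direction. It was 1 with DESeq2 (26.4% of all genes) and 0 to 1 with a culture left out (15% to 25.6%). At an adjusted p under 0.05 it was 2, where 2478 of 13498 genes passed lower. In the paired fit, with a replicate block, 3 members passed lower. These were Cd74 (adjusted p 2.08e-05), H2-Ab1 (6.01e-05) and H2-Aa (0.00749), against 26.5% of all genes, and the block gave 1 promoter factor and 2 macrophage markers passing higher. Equal replicate numbers correlated at 0.117, 0.0846 and 0.0371 in their deviations from the treatment means, and unlike numbers at -0.116 to 0.0487. EV replicates 1 and 2 correlated best with the sham culture of their own number, and EV replicate 3 with sham replicate 2. These correlations do not settle the pairing, and the numbers were not treated as pairs in the main fit. The block took the SE from 0.298 to 0.113 for Cd74, from 0.282 to 0.143 for H2-Ab1 and from 0.300 to 0.146 for H2-Aa. It took the SE from 0.203 to 0.221 for H2-DMa and from 0.126 to 0.128 for H2-DMb1. The study's text can be read as replicates split between the treatments, which the labels do not state. One promoter factor, against 0, also passed higher with no filter (1), with DESeq2 (1) and in 0 to 1 with a culture left out. With scaling by library size alone the median log2 fold change of all genes was -0.16 against -0.01, 1036 genes passed higher and 2342 lower, turnover genes passing higher went from 1 to 0, and Rfx5 was at -0.018. Over all genes, 1071 to 1833 passed higher and 1018 to 1698 lower with a culture left out, the fewest without EV replicate 3. An adjusted p under 0.05 gave 2478 lower, and a log2 fold change of at least 1 left 419 higher and 857 lower. With a culture left out, the log2 fold change of H2-DMa ranged from -0.241 to 0.0621, that of H2-Oa from -0.135 to 0.0021 and that of H2-DMb2 from -0.359 to 0.417. The sign turned for H2-DMa and H2-Oa without EV replicate 1, and for H2-DMb2 without sham replicate 2 (0.417) and without EV replicate 1 (0.0799). The cause of these changes was not tested beyond what each alternative leaves out.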
